A study of Mus musculus with 10 samples.

Results

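The genes described here are 10 mouse genes of fatty acid synthesis, desaturation and activation, chosen by name: Srebf1, Acly, Acaca, Fasn, Scd1, Scd2, Fads1, Fads2, Acsl1 and Acsl3. They were chosen with earlier results of these data known. Counts and medians set beside those of all genes thus describe the set and do not test it. All 10 were present among the 11617 genes of the deposited table, and all 10 passed the filter of the test, a mean over all libraries of 1 CPM (CPM, the read count of a gene scaled to the size of its library) or more, which left 11407 genes. The RNA, selected by its poly-A tail, came from macrophages grown from C57BL/6 mouse bone marrow. The mice were 6 weeks old in the strain label and 7 weeks old in the growth protocol, and the cells were grown with GM-CSF (50 ng/ml), a myeloid growth factor, in medium holding 10% serum, in all groups. The 5 groups received AmTARS for 3 h, AmTARS for 1 h, Pam3csk4 for 3 h, Pam3csk4 for 1 h, or were labelled control, with 2 libraries each (n = 2 per group). AmTARS is known as an enzyme of Akkermansia muciniphila, a gut bacterium, that charges tRNA with threonine, and Pam3csk4 is a synthetic lipopeptide that activates the receptor TLR2. The series compares both as ligands of TLR2. Pam3csk4 was given at 10 ng/ml and AmTARS at 0.5 with the unit written mm, so how the doses relate is unknown, and each difference between the ligands holds for these doses. The control group carries no time label, and nothing in the labels ties the 2 libraries of a group to separate cultures or animals, so p-values may measure technical spread alone.

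Fatty acids are built in the cytosol from citrate. ATP citrate lyase (Acly) splits citrate to acetyl-CoA, acetyl-CoA carboxylase (Acaca) turns that into malonyl-CoA, and fatty acid synthase (Fasn) joins the units into palmitate. Stearoyl-CoA desaturases (Scd1, Scd2) make monounsaturated fatty acids, the front-end desaturases FADS1 and FADS2 make polyunsaturated ones, and long-chain acyl-CoA synthetases (Acsl1, Acsl3) attach coenzyme A, which a fatty acid needs before it can enter lipids or be oxidised. Srebf1 encodes SREBP-1, a membrane-bound transcription factor that is released by cleavage and switches on most of these genes. In macrophages, lipid synthesis is known to be remodelled after Toll-like receptor activation.

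Reads in the listed genes numbered 27398791 to 37559810 per library. In each treated group long transcripts were lower than in control. Spearman's rho of the log2 fold change with the length of the longest transcript, taken over 11366 genes that are no independent replicates, ran from -0.706 for AmTARS at 1 h to -0.485 for Pam3csk4 at 3 h. Between the ligands it was -0.01 at 3 h and 0.316 at 1 h. Between 3 h and 1 h it was 0.201 with AmTARS and 0.244 with Pam3csk4, and for the difference of these time changes -0.163. Several of the 10 genes have long transcripts, 9513 nt for Acaca and 10050 nt for Fasn, so values of the 10 genes against control are also given with the trends of length and GC content removed from each library, called the correction below. All 9 macrophage markers were present, and Lyz2 alone held 42922 to 47748 CPM. None of 6 adipocyte markers, of a cell type rich in these enzymes, was in the table, nor was any of 5 lymphocyte markers. Of 8 dendritic cell markers 2 were present, with summed levels of 9.13 to 12.8 CPM. Of 8 markers of neutrophils and their precursors 7 were present, and their sum was 1888 to 1995 CPM with AmTARS for 3 h, 1889 to 1946 CPM with AmTARS for 1 h, 2082 to 2464 CPM with Pam3csk4 for 3 h, 1879 to 2242 CPM with Pam3csk4 for 1 h and 1404 to 1491 CPM in control. All 5 stromal markers were present, at 1408 to 1495, 1337 to 1465, 1352 to 1543 and 1435 to 1561 CPM in those 4 treated groups, and 1541 to 1628 CPM in control. The part of these cells in the results below was not tested. In bulk RNA, fewer cells of a type and less RNA per cell cannot be told apart.

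At 3 h 7 of the 10 genes differed between the ligands (17.1% of all genes tested were called). AmTARS raised the desaturase gene Scd2 and the synthetase genes Acsl1 and Acsl3. Pam3csk4 raised Acsl1 by the largest log2 change of the set and lowered Scd2, Fads1 and Acsl3. Srebf1 was higher with both ligands (0.23 and 0.22, SE 0.06 each) and Acly lower with Pam3csk4 (-0.22, SE 0.05), also after the correction. Acaca, Fasn and Scd1 were lower with Pam3csk4 as deposited but not after the correction. The calls of Srebf1 and Acsl3 against control were lost when certain single libraries were left out. At 1 h no difference between the ligands passed the test for these genes, and 0.184% of all genes tested were called. The ligands moved Scd2 and Acsl3 in opposite directions at 3 h, with log2 fold changes against control of 0.43 (SE 0.05) and 0.32 (SE 0.10) for AmTARS and -0.41 (SE 0.05) and -0.33 (SE 0.10) for Pam3csk4. These comparisons share the same 2 control libraries.

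**Figure D1:**
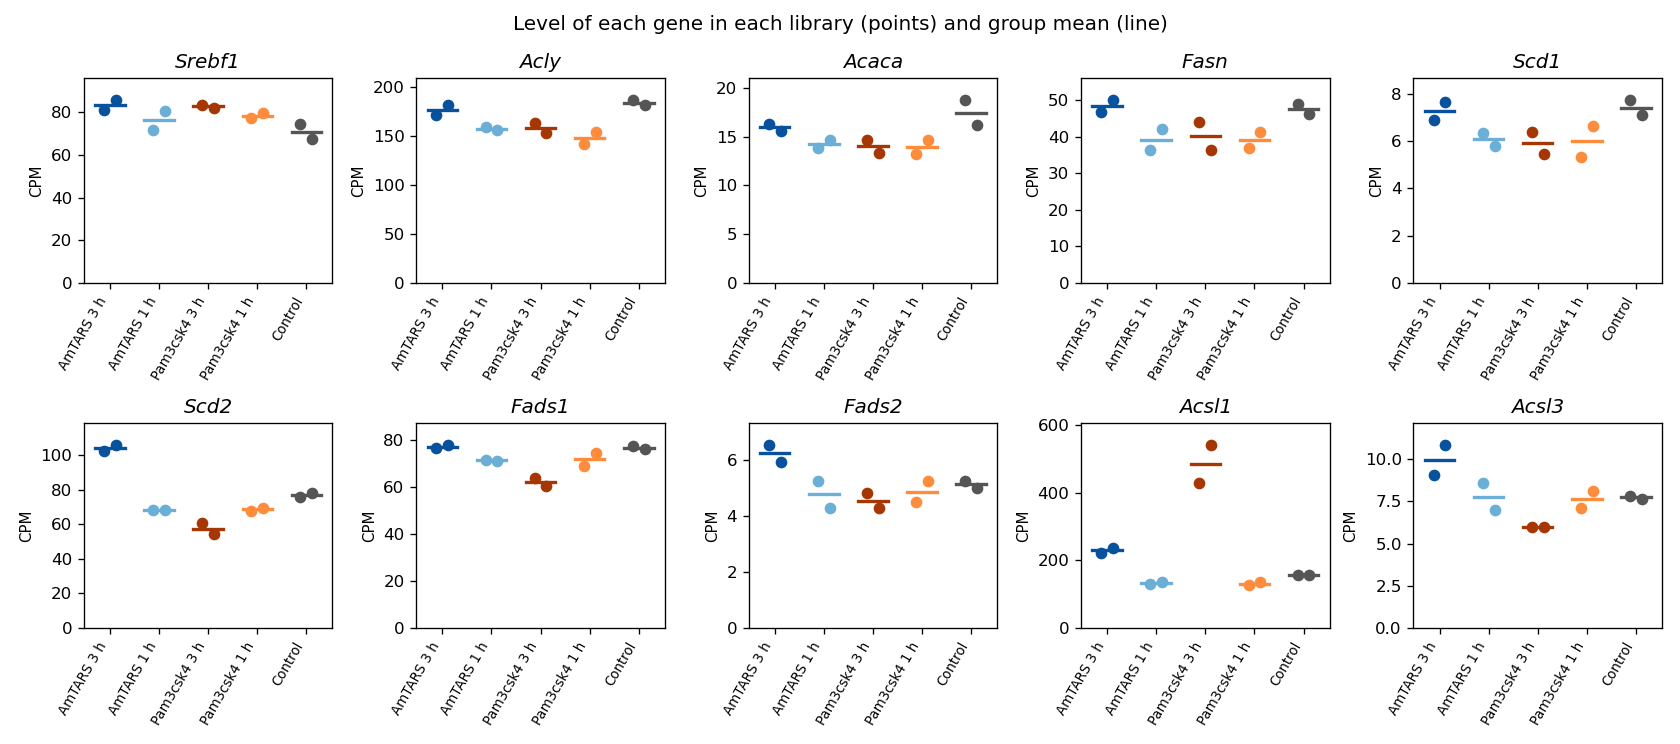
Level of each gene in CPM (vertical axes, from 0, each panel with its own scale) in each of the 10 libraries (points) by group, with the group mean as a line. Scd2 was highest in both AmTARS 3 h libraries (102 and 106 CPM), and Acsl1 in both Pam3csk4 3 h libraries (428 and 541 CPM).

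Per kilobase of the longest transcript, Acly was the most abundant of the 10 in control cells at 41.6 CPM per kb, followed by Acsl1 at 27.5, Fads1 at 22.2, Srebf1 at 16.5, Scd2 at 14.1 and Fasn at 4.74 CPM per kb. The ranges of the 2 control libraries did not overlap between any of these neighbours. Acsl3 (1.94 and 1.98), Acaca (1.70 and 1.97), Fads2 (1.59 and 1.67) and Scd1 (1.47 and 1.60 CPM per kb in the control libraries) came last. In that order Acsl3 overlapped with Acaca and Fads2 with Scd1 in the range of the control libraries. Scd2 was thus the main stearoyl-CoA desaturase transcript, and Fads1 stood far above Fads2. Counts behind the values ran from 121 reads for Fads2 to 19505 for Acsl1 in a library. Between the lowest and the highest library, Srebf1 varied 1.27-fold and Acsl1 4.30-fold. How reads that match several genes were counted is not given in the sources used here. Of the 50-base windows of the longest transcript, 4.66% for Scd1 and 3.79% for Scd2 also occur in another Scd transcript and 0.161% for Fads2 in another Fads transcript, so reads of the shared windows may be assigned to either gene. Since Scd2 had 76.7 CPM and Scd1 7.43 CPM in control, such reads weigh more on the values of Scd1, which are uncertain for this reason.

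Counted over the 10 genes with limma and Benjamini-Hochberg adjustment over all genes tested, 4 rose and none fell with AmTARS at 3 h (36.7% of all genes tested were called in that comparison, 18.8% higher and 17.9% lower), where rose and fell mean an adjusted p below 0.05. The median log2 fold change of the 10 genes was 0.13, against 0.0011 over all genes. With AmTARS at 1 h none rose and 5 fell (38.7% of all genes called, 18.9% higher and 19.8% lower), with a median of -0.20, against -0.0016 over all genes. Pam3csk4 at 3 h raised 2 and lowered 7 (48.9% of all genes called, 24.7% higher and 24.2% lower), with a median of -0.27, against -0.0068 over all genes. Pam3csk4 at 1 h raised none and lowered 6 (48.7% of all genes called, 23.9% higher and 24.8% lower), with a median of -0.21, against -0.0034 over all genes. After the length and GC correction 5 rose and none fell with AmTARS at 3 h (21.3% of all genes called, 12.3% higher and 8.97% lower), and with AmTARS at 1 h none rose and 1 fell (17.1% called, 9.98% higher and 7.14% lower). With Pam3csk4, 2 rose and 4 fell at 3 h (43.0% called, 21.4% higher and 21.5% lower), and 1 rose and 1 fell at 1 h (27.8% called, 14.3% higher and 13.6% lower). The medians of the 10 genes after the correction were 0.21 with AmTARS at 3 h, -0.04 with AmTARS at 1 h, -0.15 with Pam3csk4 at 3 h and -0.03 with Pam3csk4 at 1 h, against -0.0041, -0.0058, -0.0165 and -0.0068 over all genes. At 1 h every fall but that of Acly ended with the correction. For the counts with 1 library left out, here and below, shares of all genes called are not given. The count for AmTARS at 3 h was 2 without AmTARS 3 h replicate 3 and 2 without control replicate 3, and that for AmTARS at 1 h was 1 without AmTARS 1 h replicate 2, 1 without control replicate 2 and 3 without control replicate 3. For Pam3csk4 it was 5 at 3 h without control replicate 2 and 5 without Pam3csk4 3 h replicate 3, and at 1 h it was 3 without control replicate 2 and 1 without Pam3csk4 1 h replicate 1.

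**Figure D2:**
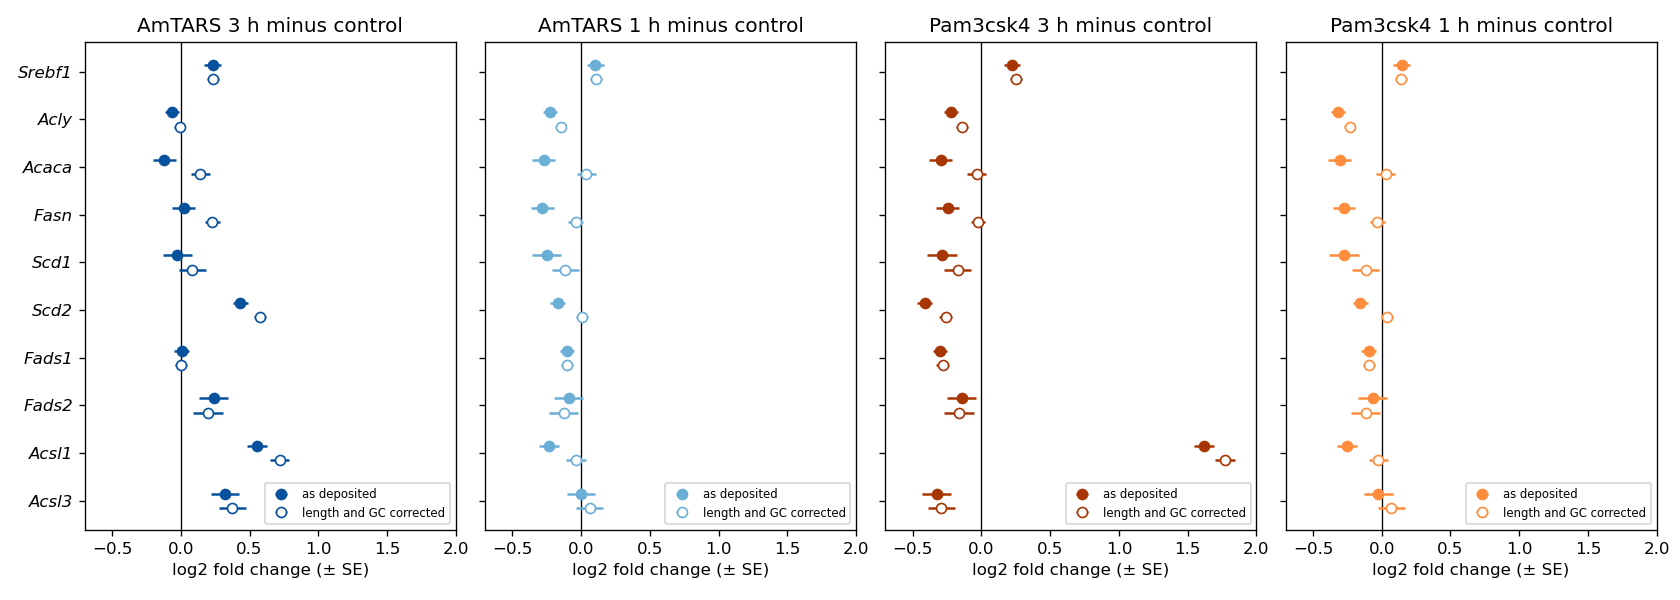
Log2 fold change against control (horizontal axis, bars give ± SE) of the 10 genes (rows) in the 4 treated groups (panels), as deposited (filled) and after the length and GC correction (open). At 1 h the falls of Acaca, Fasn, Scd2 and Acsl1 lie near 0 after the correction, while at 3 h Scd2, Acsl1 and Acsl3 keep their direction.

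Srebf1, the regulator (chromosome 11, 60199089 to 60222581, genome build GRCm38, minus strand), rose slightly with both ligands at 3 h. It had 81.1 and 85.7 CPM with AmTARS for 3 h, 71.9 and 80.9 CPM with AmTARS for 1 h, 83.7 and 82.1 CPM with Pam3csk4 for 3 h, 77.3 and 79.6 CPM with Pam3csk4 for 1 h, and 74.6 and 67.3 CPM in control. Both 3 h groups lay above both control libraries, while AmTARS at 1 h overlapped with control. The log2 fold change was 0.23 (SE 0.06, adjusted p = 0.00585) for AmTARS and 0.22 (SE 0.06, adjusted p = 0.0047) for Pam3csk4 at 3 h, and both passed after the correction as well. At 1 h it was 0.10 (SE 0.06, adjusted p = 0.183) and 0.15 (SE 0.06, adjusted p = 0.0534), and the Pam3csk4 value passed after quantile or median scaling and after the correction. The AmTARS call at 3 h was lost without AmTARS 3 h replicate 3 (0.19) or control replicate 3 (0.16), and the Pam3csk4 call without control replicate 3 (0.15).

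Acly (chromosome 11, 100476353 to 100528000) was lower than control in 3 of the 4 treated groups. It had 171 and 182 CPM with AmTARS for 3 h, 159 and 156 CPM with AmTARS for 1 h, 163 and 153 CPM with Pam3csk4 for 3 h, 141 and 154 CPM with Pam3csk4 for 1 h, and 187 and 182 CPM in control. All 8 treated libraries lay below the lower control library, those of AmTARS at 3 h by little. Acly fell by 0.22 (SE 0.05, adjusted p = 0.00208) with AmTARS at 1 h, by 0.22 (SE 0.05, adjusted p = 0.00135) with Pam3csk4 at 3 h and by 0.32 (SE 0.05, adjusted p = 5.3e-05) with Pam3csk4 at 1 h. After the length and GC correction these stood at -0.15, -0.14 and -0.23 and still passed. With AmTARS at 3 h the value was -0.06 (SE 0.05, adjusted p = 0.366). Acly was the 1 gene of the set that fell at 1 h with either ligand both as deposited and after the correction.

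Acaca and Fasn, the enzymes of malonyl-CoA and palmitate synthesis, were lower than control at 1 h and with Pam3csk4 at 3 h as deposited, but not after the correction. Acaca (chromosome 11, 84129672 to 84401651) had 16.3 and 15.6 CPM with AmTARS for 3 h, 13.8 and 14.7 CPM with AmTARS for 1 h, 14.7 and 13.3 CPM with Pam3csk4 for 3 h, 13.2 and 14.6 CPM with Pam3csk4 for 1 h, and 18.7 and 16.2 CPM in control. Fasn (chromosome 11, 120805846 to 120824547) had 46.7 and 49.9 CPM with AmTARS for 3 h, 36.2 and 41.9 CPM with AmTARS for 1 h, 43.9 and 36.4 CPM with Pam3csk4 for 3 h, 37.0 and 41.4 CPM with Pam3csk4 for 1 h, and 49.0 and 46.2 CPM in control. For both genes AmTARS at 3 h overlapped with control and the other 3 treated groups lay below it. As deposited Acaca fell by 0.27 with AmTARS at 1 h, by 0.30 with Pam3csk4 at 3 h and by 0.31 with Pam3csk4 at 1 h (SE 0.08 each, adjusted p from 0.00479 to 0.0137). Fasn fell by 0.28, 0.25 and 0.28 in the same groups (SE 0.08 each, adjusted p from 0.00867 to 0.0174). After the correction Acaca stood at 0.04, -0.04 and 0.03 and Fasn at -0.04, -0.02 and -0.03, and none passed. Fasn rose by 0.23 (SE 0.05) with AmTARS at 3 h after the correction, against 0.02 (SE 0.08) as deposited. Without control replicate 2, AmTARS at 1 h gave -0.17 for Acaca and -0.24 for Fasn, Pam3csk4 at 3 h gave -0.20 for both, and Pam3csk4 at 1 h gave -0.21 and -0.23, and no value passed. Calls were also lost without AmTARS 1 h replicate 2 (-0.23 for Acaca and -0.18 for Fasn), Pam3csk4 3 h replicate 3 (-0.23 and -0.11) and Pam3csk4 1 h replicate 1 (-0.24 and -0.20).

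Scd2 (chromosome 19, 44293674 to 44306864) gave the clearest split between the ligands. It had 102 and 106 CPM with AmTARS for 3 h, 67.9 and 68.2 CPM with AmTARS for 1 h, 60.4 and 54.4 CPM with Pam3csk4 for 3 h, 67.8 and 69.5 CPM with Pam3csk4 for 1 h, and 75.5 and 77.9 CPM in control. The AmTARS 3 h libraries were the highest and the Pam3csk4 3 h libraries the lowest of the series, and the 1 h groups overlapped with each other below control. Scd2 rose by 0.43 (SE 0.05, adjusted p = 1.56e-05) with AmTARS and fell by 0.41 (SE 0.05, adjusted p = 3.61e-06) with Pam3csk4 at 3 h. After the correction these were 0.57 and -0.26 and both passed. At 1 h it fell by 0.17 with AmTARS and by 0.16 with Pam3csk4 (SE 0.05 each, adjusted p = 0.0181 and 0.022). Those small falls stood at 0.0041 and 0.04 after the correction and did not pass. They were also lost without any 1 library of AmTARS 1 h (-0.17 for each) or control (-0.15 and -0.19) for AmTARS, and without either control library (-0.13 and -0.18) or Pam3csk4 1 h replicate 1 (-0.14) for Pam3csk4.

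Scd1 (chromosome 19, 44394455 to 44407879), the neighbouring paralogue, was a minor transcript. It had 6.90 and 7.66 CPM with AmTARS for 3 h, 6.35 and 5.82 CPM with AmTARS for 1 h, 6.38 and 5.47 CPM with Pam3csk4 for 3 h, 5.33 and 6.66 CPM with Pam3csk4 for 1 h, and 7.74 and 7.12 CPM in control. AmTARS at 3 h overlapped with control and the other groups lay below it. As deposited it fell by 0.29 with Pam3csk4 at 3 h and by 0.27 at 1 h (SE 0.11 each, adjusted p = 0.0305 and 0.038), and stood at -0.25 (SE 0.11, adjusted p = 0.0663) with AmTARS at 1 h and at -0.03 (SE 0.11) with AmTARS at 3 h. None of these passed after the correction. The Pam3csk4 calls were lost without control replicate 2 (-0.23 at 3 h and -0.22 at 1 h), the 3 h one also without Pam3csk4 3 h replicate 3 (-0.19) and the 1 h one without control replicate 3 (-0.33) or Pam3csk4 1 h replicate 1 (-0.14). Whether Scd1 and Scd2 differed in their response was not tested.

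Fads1 (chromosome 19, 10182888 to 10196877), the delta-5 desaturase gene of polyunsaturated fatty acid synthesis, fell with Pam3csk4 at 3 h. It had 76.3 and 77.6 CPM with AmTARS for 3 h, 71.4 and 71.1 CPM with AmTARS for 1 h, 63.8 and 60.4 CPM with Pam3csk4 for 3 h, 69.0 and 74.4 CPM with Pam3csk4 for 1 h, and 77.1 and 76.2 CPM in control. The fall was 0.30 on the log2 scale (SE 0.05, adjusted p = 9.43e-05), and 0.28 after the correction. AmTARS at 3 h overlapped with control (0.0059, SE 0.05). At 1 h the values were -0.10 (SE 0.05) for either ligand and did not pass. Fads2 (chromosome 19, 10062765 to 10101746), the delta-6 desaturase gene, had 6.53 and 5.94 CPM with AmTARS for 3 h, 5.24 and 4.30 CPM with AmTARS for 1 h, 4.82 and 4.27 CPM with Pam3csk4 for 3 h, 4.48 and 5.24 CPM with Pam3csk4 for 1 h, and 5.255 and 4.997 CPM in control. Against control it did not pass in any group, with log2 fold changes of 0.24 (SE 0.11, adjusted p = 0.088) for AmTARS and -0.14 (SE 0.11, adjusted p = 0.276) for Pam3csk4 at 3 h. Its libraries at 3 h lay above control with AmTARS and below it with Pam3csk4, which with 2 libraries per group arises often without a difference.

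Acsl1 (chromosome 8, 46471037 to 46536051) showed the largest change of the 10 genes. It had 221 and 237 CPM with AmTARS for 3 h, 131 and 135 CPM with AmTARS for 1 h, 428 and 541 CPM with Pam3csk4 for 3 h, 126 and 135 CPM with Pam3csk4 for 1 h, and 155 and 157 CPM in control. The groups at 3 h lay above all other libraries, those of Pam3csk4 highest, and the 1 h groups lay below control. At 3 h Acsl1 rose by 0.55 (SE 0.07, adjusted p = 2.23e-05) with AmTARS and by 1.62 (SE 0.07, adjusted p = 5.46e-13) with Pam3csk4, and by 0.72 and 1.77 after the correction. At 1 h it fell by 0.23 (SE 0.07, adjusted p = 0.0158) with AmTARS and by 0.26 (SE 0.07, adjusted p = 0.00651) with Pam3csk4. After the correction these values were -0.04 and -0.03 and did not pass. The 1 h call was lost without AmTARS 1 h replicate 2 (-0.21), control replicate 2 (-0.24) or control replicate 3 (-0.22) for AmTARS, and without Pam3csk4 1 h replicate 1 (-0.21) for Pam3csk4. The 2 libraries of Pam3csk4 at 3 h differed most in the series, with a chi-square per degree of freedom of 7.50 against counting noise, against 3.58 to 4.63 in the other groups, so the SE, which shares 1 spread per gene over all groups, may be too small there.

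Acsl3 (chromosome 1, 78657825 to 78707743), whose product serves lipid droplet growth, moved in opposite directions at 3 h. It had 9.09 and 10.8 CPM with AmTARS for 3 h, 8.57 and 6.99 CPM with AmTARS for 1 h, 5.97 and 5.99 CPM with Pam3csk4 for 3 h, 7.11 and 8.13 CPM with Pam3csk4 for 1 h, and 7.83 and 7.68 CPM in control. At 3 h the AmTARS libraries lay above and the Pam3csk4 libraries below all others. It rose by 0.32 (SE 0.10, adjusted p = 0.0197) with AmTARS and fell by 0.33 (SE 0.10, adjusted p = 0.0128) with Pam3csk4, and both passed after the correction at 0.38 and -0.29. At 1 h both groups overlapped with control. The AmTARS call was lost without AmTARS 3 h replicate 3 (0.21), control replicate 2 (0.33) or control replicate 3 (0.31), and the Pam3csk4 call without control replicate 2 (-0.31) or Pam3csk4 3 h replicate 3 (-0.33).

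Because Acsl1 rose and Acsl3 fell with Pam3csk4 at 3 h, the 250 bases before their transcription starts are shown, from the RefSeq promoter table (GRCm38.p6, plus strand of the gene, 5′ to 3′). Acsl1 has 2 starts in that table, with the windows chr8:46470787-46471036 and chr8:46490716-46490965 before them, and Acsl3 has 1, with the window chr1:78657575-78657824. Capitals mark matches on either strand to the GC box GGGCGG, the CCAAT box and the sterol regulatory element TCACNCCAC.
Acsl1 upstream start: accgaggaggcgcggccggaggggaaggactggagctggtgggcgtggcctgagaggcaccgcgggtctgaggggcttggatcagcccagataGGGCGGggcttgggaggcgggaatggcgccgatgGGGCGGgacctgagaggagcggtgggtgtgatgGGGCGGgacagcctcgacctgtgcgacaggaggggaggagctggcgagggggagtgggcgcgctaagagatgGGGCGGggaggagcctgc
Acsl1 downstream start: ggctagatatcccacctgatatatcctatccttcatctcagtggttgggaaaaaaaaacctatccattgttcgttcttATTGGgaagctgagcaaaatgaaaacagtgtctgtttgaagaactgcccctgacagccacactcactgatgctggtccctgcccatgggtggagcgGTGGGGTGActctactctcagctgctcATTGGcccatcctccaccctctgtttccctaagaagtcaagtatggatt
Acsl3: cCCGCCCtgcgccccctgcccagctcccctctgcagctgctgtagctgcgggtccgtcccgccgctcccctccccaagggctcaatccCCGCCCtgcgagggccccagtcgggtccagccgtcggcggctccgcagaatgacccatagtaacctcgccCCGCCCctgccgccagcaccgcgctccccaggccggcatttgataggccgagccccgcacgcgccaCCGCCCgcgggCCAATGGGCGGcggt
The upstream window of Acsl1 held 4 GC boxes. The downstream window held 2 CCAAT boxes and 1 sterol regulatory element, on the strand opposite to the gene. The Acsl3 window held 5 GC boxes, 1 of which follows directly on its 1 CCAAT box. Of all 32851 promoter windows of this length, 32.7% held a GC box, 33.8% a CCAAT box and 1.05% that sterol regulatory element. The table matched 7 of the 10 genes with 10 windows, and the sterol regulatory element was found in 1 of these, an E-box (CACGTG, in 6.02% of all windows) in 0 and the LXR DR4 consensus (in 0.067%) in 0. The NF-kB consensus, found in 7.25% of all windows, was in 1 window of Srebf1 and the window of Fads2. Gene-level values do not show which start was used, and a match is a description and not a site.

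Between the ligands, 7 of the 10 genes passed the test at 3 h and 0 at 1 h, where few of all genes passed. At 3 h, 6 of the 10 genes were higher and 1 was lower with AmTARS than with Pam3csk4 (17.1% of all genes tested were called in that comparison, 8.04% higher and 9.08% lower), with a median log2 difference of 0.26, against 0.0067 over all genes. The counts were the same after the length and GC correction (21.5% of all genes called, 10.8% higher and 10.6% lower). Scd2 was higher with AmTARS by 0.85 (SE 0.05, adjusted p = 4.17e-10), Acsl3 by 0.65 (SE 0.10, adjusted p = 9.68e-05), Fads2 by 0.38 (SE 0.11, adjusted p = 0.0158) and Fads1 by 0.31 (SE 0.05, adjusted p = 0.000214). Fasn and Acly were higher by 0.27 (SE 0.08, adjusted p = 0.0275) and 0.16 (SE 0.05, adjusted p = 0.0353). Acsl1 was lower with AmTARS, at a log2 difference of -1.07 (SE 0.07, adjusted p = 9.23e-10). Scd1 and Acaca, at 0.26 (SE 0.11, adjusted p = 0.106) and 0.18 (SE 0.08, adjusted p = 0.172), did not pass. For both genes the AmTARS libraries lay above the Pam3csk4 libraries, which with 2 libraries per group arises often without a difference. Srebf1 stood at 0.0078 (SE 0.06) with overlapping groups. Leaving out Pam3csk4 3 h replicate 3 ended the calls of Fads2 (0.31), Fasn (0.13) and Acly (0.11), leaving out AmTARS 3 h replicate 1 ended the same 3 (0.33, 0.31 and 0.20), and leaving out AmTARS 3 h replicate 3 ended those of Fasn (0.22) and Acly (0.12). With no intensity trend in limma the calls of Fasn and Acly were lost. The counts were 4 without Pam3csk4 3 h replicate 3 and 4 without AmTARS 3 h replicate 1. At 1 h, limma called 0 of the 10 (0.184% of all genes tested were called, and 0.211% after the correction, where the members' count was also 0), 0 had an unadjusted p below 0.05, and voom on the recovered reads called 0. The 1 h differences ran from -0.04 to 0.09 on the log2 scale, with SE from 0.05 to 0.11.

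**Figure D3:**
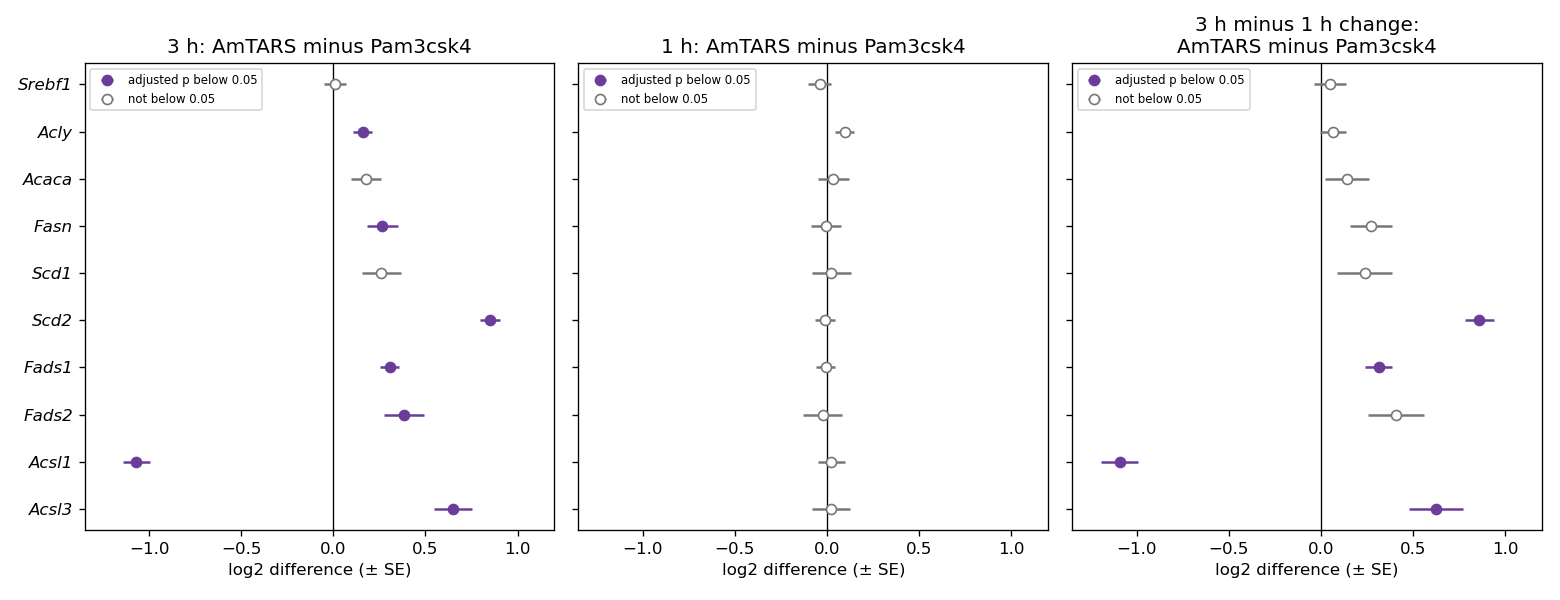
Log2 difference of AmTARS minus Pam3csk4 (horizontal axis, bars give ± SE) for the 10 genes (rows) at 3 h, at 1 h, and for the 3 h minus 1 h change. Filled points have an adjusted p below 0.05. At 3 h Scd2 (0.85) and Acsl3 (0.65) lie farthest to the AmTARS side and Acsl1 (-1.07) to the Pam3csk4 side, while at 1 h all points lie near 0.

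The change between the time points was tested within each ligand and between the ligands. The control libraries enter these contrasts through the shared estimate of the spread alone. With AmTARS, 2 of the 10 genes were higher at 3 h than at 1 h and none was lower (2.38% of all genes tested were called, 1.81% higher and 0.57% lower), Acsl1 by 0.78 (SE 0.07, adjusted p = 2.01e-06) and Scd2 by 0.60 (SE 0.05, adjusted p = 1.68e-06). Fasn at 0.30 (SE 0.08, adjusted p = 0.0573), Fads2 at 0.33 (SE 0.11, adjusted p = 0.141) and Acsl3 at 0.32 (SE 0.10, adjusted p = 0.133) did not pass, and the other 5 genes stood between 0.11 and 0.23. After the correction Fasn also passed, for 3 genes in all (3.92% of all genes called, 2.66% higher and 1.27% lower). With Pam3csk4, 1 gene was higher and 3 were lower at 3 h than at 1 h (31.5% of all genes tested were called, 16.2% higher and 15.3% lower), and the counts were the same after the correction (33.6% called, 16.4% higher and 17.1% lower). Acsl1 rose by 1.88 (SE 0.07, adjusted p = 1.66e-13), Acsl3 fell by 0.30 (SE 0.10, adjusted p = 0.0301), Scd2 fell by 0.26 (SE 0.05, adjusted p = 0.00103) and Fads1 fell by 0.20 (SE 0.05, adjusted p = 0.0052). The Acsl3 call was lost without Pam3csk4 1 h replicate 3 (-0.22), Pam3csk4 3 h replicate 2 (-0.30) or Pam3csk4 3 h replicate 3 (-0.31), and the Fads1 call without Pam3csk4 1 h replicate 3 (-0.15) or Pam3csk4 3 h replicate 3 (-0.17). The Acsl3 call was also lost with quantile scaling and with no intensity trend. The count was 2 without Pam3csk4 1 h replicate 3 and 2 without Pam3csk4 3 h replicate 3. The time change itself differed between the ligands for 4 of the 10 genes (9.2% of all genes tested were called, 3.49% higher and 5.71% lower). AmTARS minus Pam3csk4, it was 0.86 (SE 0.08, adjusted p = 2.17e-07) for Scd2, 0.62 (SE 0.15, adjusted p = 0.00737) for Acsl3, 0.31 (SE 0.07, adjusted p = 0.00789) for Fads1 and -1.09 (SE 0.10, adjusted p = 3.53e-07) for Acsl1. All 4 also passed after the correction, where Fasn passed too at 0.26 (SE 0.08), against 0.27 (SE 0.12) as deposited (11.9% of all genes called after it, 4.97% higher and 6.93% lower). The Acsl3 call was lost without AmTARS 1 h replicate 3 (0.49) or AmTARS 3 h replicate 3 (0.51), and the Fads1 call with no intensity trend in limma.

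The neighbouring steps of the pathway were described with 6 gene lists written from textbook knowledge, with earlier results of these data known. At 3 h their median log2 fold changes ran from 0.0288 to 0.0815 with AmTARS, against 0.0011 over all genes, and from -0.0927 to 0.0741 with Pam3csk4, against -0.0068 over all genes. After the correction they ran from -0.0549 to 0.0219 with AmTARS, with 3 of the 6 below 0, and from -0.1004 to -0.0093 with Pam3csk4, against -0.0041 and -0.0165 over all genes. The counts below can be read against the shares of all genes called in the same comparisons. At 3 h these were 18.8% higher and 17.9% lower with AmTARS (12.3% and 8.97% after the correction). With Pam3csk4 they were 24.7% and 24.2% (21.4% and 21.5% after it). Of 22 measured SREBP and LXR regulators, 4 rose and 8 fell with AmTARS at 3 h (3 and 0 after the correction), and 8 rose and 8 fell with Pam3csk4 (6 and 8 after it). Insig1, which holds SREBP in the endoplasmic reticulum and is itself an SREBP target, rose by 0.47 (SE 0.06) with AmTARS at 3 h, to 89.2 ± 1.05 CPM against 64.3 ± 1.36 CPM in control (SD, n = 2). Nr1h3, which encodes the sterol receptor LXR alpha, an activator of Srebf1, rose by 0.42 (SE 0.06) with AmTARS and by 0.97 (SE 0.06) with Pam3csk4, and by 0.27 and 0.83 after the correction. Lpin1, which encodes a phosphatidate phosphatase and nuclear co-regulator, fell by 0.31 (SE 0.09) with AmTARS, a call that ended with the correction, and by 0.92 (SE 0.09) with Pam3csk4. Rxra, which encodes the partner of LXR, fell by 0.49 (SE 0.05) with Pam3csk4. Between the ligands at 3 h, 5 regulators were higher and 1 was lower with AmTARS (8.04% and 9.08% of all genes). Lpin1 stood at 0.60 and Nr1h3 at -0.55.

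At 3 h 18.8% of all genes tested rose and 17.9% fell with AmTARS (12.3% and 8.97% after the correction). With Pam3csk4 24.7% rose and 24.2% fell (21.4% and 21.5% after it). Of 12 measured genes of fatty acid precursors and synthesis, 3 rose and 1 fell with AmTARS at 3 h, also after the correction, and 3 rose and 1 fell with Pam3csk4 (2 and 2 after it). Aacs, which makes acetoacetyl-CoA for lipid synthesis, rose by 0.45 (SE 0.06) with AmTARS, and Slc25a1, the gene of the mitochondrial citrate carrier, rose by 0.37 (SE 0.05) with AmTARS and by 0.31 (SE 0.05) with Pam3csk4. After the correction Slc25a1 stood at 0.18 and 0.12, which passed, and Aacs at 0.39. Idh1, the gene of an enzyme that supplies NADPH in the cytosol, fell by 0.19 (SE 0.05) with AmTARS and by 0.52 (SE 0.05) with Pam3csk4. Of 14 genes of elongation and other desaturation, 4 rose and 1 fell with AmTARS (1 and 1 after the correction), and 4 rose and 3 fell with Pam3csk4 (2 and 2 after it). Elovl6, the gene of the elongase that acts on palmitate, was higher with AmTARS than with Pam3csk4 at 3 h by 0.50 (SE 0.11, adjusted p = 0.00203), at 5.12 ± 0.122 against 3.34 ± 0.0660 CPM (SD, n = 2). Hacd4, which encodes a dehydratase of elongation, fell by 0.30 with AmTARS and by 0.59 with Pam3csk4 (SE 0.06 each), and by 0.19 and 0.51 after the correction.

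The shares of all genes that rose and fell at 3 h were 18.8% and 17.9% with AmTARS, and 24.7% and 24.2% with Pam3csk4. Of 20 measured genes of other acyl-CoA synthetases, thioesterases and transport, 6 rose and 1 fell with AmTARS at 3 h (3 and 2 after the correction), and 7 rose and 5 fell with Pam3csk4 (6 and 6 after it). Between the ligands at 3 h, 4 genes of this list were higher and 4 were lower with AmTARS (8.04% and 9.08% of all genes). Besides Acsl1, the synthetase genes Acsl5 and Acsl4 were lower with AmTARS than with Pam3csk4 at 3 h, by log2 differences of -0.38 (SE 0.05, adjusted p = 2.49e-05) and -0.35 (SE 0.05, adjusted p = 8.74e-05). The synthetase genes Acsf2, at 0.29 (SE 0.09, adjusted p = 0.0248), and Acsl3, at 0.65, were higher with AmTARS. Of 26 genes of glycerolipid synthesis and remodelling, 7 rose and 5 fell with AmTARS (8 and 4 after the correction), and 12 rose and 8 fell with Pam3csk4 (8 and 9 after it). Agpat4, an acyltransferase gene, rose by 0.49 (SE 0.07) with AmTARS and by 1.17 (SE 0.07) with Pam3csk4. Dgat2, whose product completes triglycerides, rose by 0.99 (SE 0.10) with Pam3csk4, at 18.2 ± 3.70 against 8.59 ± 0.338 CPM in control (SD, n = 2), and Lpcat2, of phospholipid remodelling, rose by 0.78 (SE 0.05). Of 27 genes of fatty acid oxidation, 4 rose and 4 fell with AmTARS (3 and 5 after the correction), and 4 rose and 9 fell with Pam3csk4 (2 and 10 after it). Cpt1a, which admits fatty acids to mitochondria, fell by 0.37 with AmTARS and by 0.62 with Pam3csk4 (SE 0.06 each), and Abcd2, a peroxisomal fatty acid transporter gene, fell by 0.52 and by 1.31 (SE 0.08 each). Between the ligands at 3 h, 7 oxidation genes were higher and 1 was lower with AmTARS, against 8.04% and 9.08% of all genes.

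**Figure D4:**
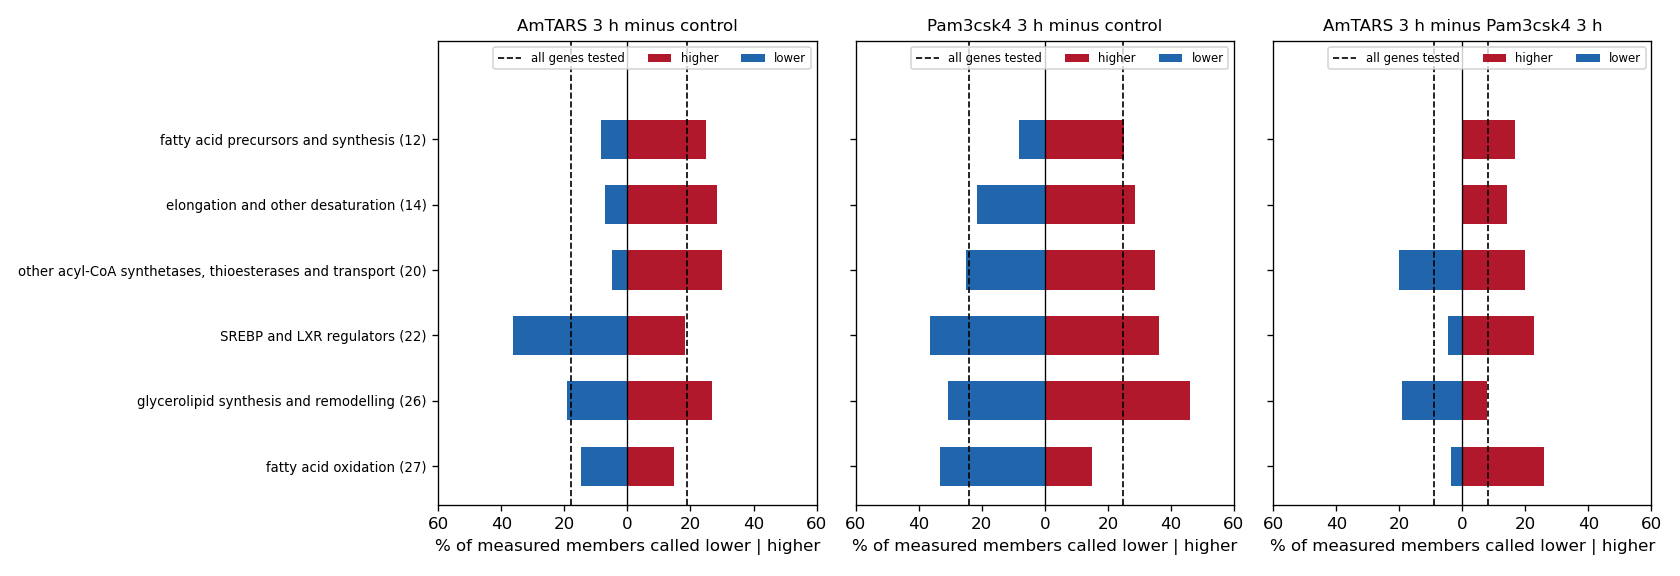
Share of the measured members of each gene list (rows, number measured in parentheses) called lower (left of 0) or higher (right of 0) at 3 h, in percent on the horizontal axis, as deposited. Panels give AmTARS against control, Pam3csk4 against control and AmTARS against Pam3csk4, and dashed lines the share of all genes tested (18.8% higher for AmTARS and 24.7% higher for Pam3csk4 against control).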

How the data were processed

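Per the submitters' processing notes, STAR 2.5.1 aligned the reads to mm10, and R 3.3.0 was used afterwards. Counting tool, annotation and scaling: not given in the sources used here. Values were deposited by the authors as log2(CPM + 1), a log2 scale with a pseudocount of 1 that understates changes of low genes. With 1 factor per library, 100% of the values were whole reads to within 0.1 read, and these reads were used in voom. The lowest count of a listed gene in any library was 3 reads, so a gene silent in some library is not in the table.

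For 11407 genes, those averaging 1 CPM or more over all libraries, limma 3.58.1 in R 4.3.3 fitted 1 mean per group to all 10 libraries, with an intensity trend (5 residual and 14.7 prior degrees of freedom) and 9 contrasts. P-values are two-sided, with Benjamini-Hochberg adjustment per contrast over all genes tested, and an adjusted p below 0.05 was called a change. SE denotes limma's moderated standard error. For the length and GC correction, natural splines (5 degrees of freedom each) of log2 length of the longest GENCODE M21 transcript and of its GC content were removed per library. Alternatives were other filters, pseudocounts, scalings and spread estimates, voom, a replicate term and leaving out each library. All members are named, and from each list up to 3 called members with the largest change per comparison. The fit was also run on simulated counts with few changed genes and no trend with transcript length. These settings differ from the data, so that run does not bear on the calls given here. The members and lists were chosen with earlier results of these data known. Figures used matplotlib 3.10.9.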

Additional observations from a re-analysis of the deposited data

Results flagged for a closer look

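The change between 1 h and 3 h differed between the ligands for 4 genes of the set, by the test of that difference in limma. Of all genes tested, 9.2% were called in this comparison, 3.49% higher and 5.71% lower. AmTARS minus Pam3csk4, the time change was 0.86 for Scd2, 0.31 for Fads1, -1.09 for Acsl1 and 0.62 for Acsl3 on the log2 scale. Scd2 was higher at 3 h than at 1 h with AmTARS (0.60) and lower with Pam3csk4 (-0.26), while Acsl1 was higher with both (0.78 and 1.88). Fads1 and Acsl3 fell with Pam3csk4 (-0.20 and -0.30), and with AmTARS stood at 0.11 and 0.32 without passing. The Fads1 difference did not pass with no intensity trend in limma, and the Acsl3 difference did not pass without AmTARS 1 h replicate 3 (0.49) or AmTARS 3 h replicate 3 (0.51).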

How the results depend on the processing

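Falls against control at 1 h depended on the processing. With AmTARS at 1 h the 5 genes called became 1 after the length and GC correction and 2 with no intensity trend, and with Pam3csk4 at 1 h the 6 called became 2 after the correction and 2 with the replicate block. Reversals under the correction were Acaca at 0.0383 and Scd2 at 0.0041 with AmTARS at 1 h, and Acaca at 0.0278 and Scd2 at 0.0376 with Pam3csk4 at 1 h. The cause was not tested. With the replicate block the 2 genes called between 3 h and 1 h of AmTARS became 5. Whether equal replicate numbers mark paired samples is unknown. Of 14 same-numbered pairs 5 correlated above 0.1, but with 2 libraries per group some of these values repeat each other, so they cannot decide it. Leaving out each library in turn gave 2 to 4 genes for AmTARS at 3 h, 1 to 6 for AmTARS at 1 h, 5 to 9 for Pam3csk4 at 3 h, 1 to 7 for Pam3csk4 at 1 h, 4 to 7 between the ligands at 3 h and 2 to 4 between 3 h and 1 h of Pam3csk4. A lone library was taken to vary like the others. Scd2 and Acsl1 passed in every setting run in the comparisons at 3 h with control and between the ligands. Falls also lost with no intensity trend were those of Fasn, Scd2 and Acsl1 with AmTARS at 1 h, Fasn with Pam3csk4 at 3 h, and Scd2 and Acsl1 with Pam3csk4 at 1 h. Quantile scaling ended that of Scd1 at 3 h and that of Scd2 at 1 h of Pam3csk4, and voom that of Scd1 at 1 h of Pam3csk4. A further 58 sign changes concerned values that passed in neither setting. The 3 genes with the lowest CPM (Fads2, Scd1, Acsl3) had the widest SE.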

Other observations

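At 1 h other genes of fatty acid handling had moved. Fabp4, a fatty acid binding protein gene of macrophages and adipocytes, rose by 0.30 (SE 0.05) with AmTARS and by 0.40 (SE 0.05) with Pam3csk4, to 187 ± 8.87 and 202 ± 10.7 CPM against 153 ± 6.41 CPM in control (SD, n = 2 each), and was also higher after the length and GC correction (0.38 and 0.52). Gpam, the gene of the acyltransferase that starts glycerolipid synthesis, fell by 0.57 and 0.66 (SE 0.14 each), and stood at -0.36 and -0.42 after the correction, which passed. Cpt1a fell by 0.35 and 0.44 (SE 0.06 each), and by 0.27 and 0.35 after the correction. Hilpda, an inhibitor of the lipase ATGL on lipid droplets, rose by 0.41 and 0.52 (SE 0.07 each), and by 0.17 and 0.21 after the correction. These genes are part of those named by the rule for the lists, and all passed after the correction with both ligands. Others named by it did not. Etfb, of the oxidation list, stood at 0.32 with AmTARS and 0.42 with Pam3csk4, and at 0.0055 and 0.03 after the correction. Dbi, of the synthetase and transport list, stood at 0.32 and 0.39, and at 0.0095 and 0.0018 after it. Of all genes tested, 38.7% were called with AmTARS and 48.7% with Pam3csk4 at 1 h.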
